A study of Mus musculus with 24 samples.

Results

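The 10 genes described here encode RNA-binding proteins that control alternative splicing in muscle. They are the muscleblind-like genes Mbnl1, Mbnl2 and Mbnl3, the RBFOX genes Rbfox1 and Rbfox2, the CELF genes Celf1 and Celf2, the polypyrimidine tract-binding protein gene Ptbp1, and the RNA-binding motif genes Rbm24 and Rbm38. They were chosen by symbol, and each matched 1 row of a deposited table of 24043 genes. The cells were C2C12, an established myoblast line from mouse, which divide in serum-rich growth medium and form multinucleated myotubes on transfer to differentiation medium with low serum. The 4 groups compared, with 2 RNA-seq libraries each (biological replicates A and B), were cells in growth medium (fetal bovine serum, kept below confluence) at 21% oxygen, here normoxic growth, the same medium at 2% oxygen (hypoxic growth), differentiation medium (horse serum plus insulin, transferrin and selenium) at 21% oxygen (normoxic differentiation), and differentiation medium at 2% oxygen (hypoxic differentiation). All groups are the same line with no genetic alteration named in the labels, so the replicates do not sample different animals, and p-values measure the spread between cultures of 1 line. The day of harvest and the length of the hypoxic exposure are not given in the sources used here. Expression is in FPKM, by definition fragment counts divided by transcript length and by a library total. Whether the authors scaled the libraries further is not given in the sources used here. Because FPKM is a level per length, it can be set side by side between genes.

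Alternative splicing lets 1 gene give several mRNAs, and muscle uses it to swap fetal for adult exons in contractile, membrane and calcium-handling proteins. MBNL proteins bind YGCY-type sites and favour adult exon patterns, while CELF proteins bind GU-rich sites and act on many of the same exons in the opposite direction; this balance is disturbed in myotonic dystrophy. RBFOX proteins bind GCAUG motifs and promote inclusion of exons that lie upstream of their sites. PTBP1 is a repressor that holds back muscle and neuronal exons in dividing cells. RBM24 promotes inclusion of muscle exons, and RBM38, its close relative, stabilises mRNAs such as that of p21 during myogenic differentiation. The deposited values are gene totals and do not measure which exons were used.

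The libraries held 14917 to 15672 genes above 0 FPKM, and their relative depth, read from the steps between low values, ran from 0.633 (hypoxic differentiation B) to 1 (hypoxic differentiation A); the fragment number itself is not in the table. The hypoxic differentiation pair was the least alike, with an SD of the log2 difference between replicates of 0.57 over 12389 genes, against 0.36 to 0.44 in the other 3 groups. The summed level of 10 skeletal muscle differentiation markers was 357 and 433 FPKM in normoxic growth, 99.1 and 106 in hypoxic growth, 13140 and 13510 in normoxic differentiation, and 67.0 and 86.1 in hypoxic differentiation. All 10 were above 0 in every library. The summed level of 10 proliferation markers was 287 and 305 FPKM in normoxic growth, 174 and 195 in hypoxic growth, and 92.7 and 97.6 in normoxic differentiation. In hypoxic differentiation it was 131 in A and 383 in B, so these replicates stood apart. Of 10 neuronal markers 5 passed the filter on low values, with Snap25 and Elavl4 listed at 0 in all 8 libraries. Their summed level was 99.6 in both normoxic growth libraries, 158 and 165 FPKM in hypoxic growth, 12.1 and 10.9 in normoxic differentiation, and 58.0 and 90.6 in hypoxic differentiation. Most of it came from Stmn2, at 5.09 to 142 FPKM, and Tubb3, at 3.91 to 65.7 FPKM. All 5 fell with differentiation medium in normoxia, against 41.0% of all genes tested. With hypoxia in differentiation medium 3 (Tubb3, Stmn2 and Syn1) rose, against 37.5% of all genes. The part of these markers in the values of the regulators was not tested. Of 10 adipocyte markers 3 passed, with Plin1, Cidec and Lep listed at 0 in all 8 libraries and a summed level of 2.72 to 24.2 FPKM.

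Upstream sequences are shown for Rbm24 and Rbm38, relatives that rose with differentiation medium in normoxia, and for Ptbp1, which fell in that comparison. They are the 250 bases before the annotated start, from RefSeq on GRCm38.p6, read 5′ to 3′ on the gene's strand. Rbm24 lies at chr13:46418050-46418299 (+), Rbm38 at chr2:173021652-173021901 (+) and Ptbp1 at chr10:79854182-79854431 (+). Capitals mark CANNTG, the E-box bound by basic helix-loop-helix factors such as MyoD and myogenin.
Rbm24: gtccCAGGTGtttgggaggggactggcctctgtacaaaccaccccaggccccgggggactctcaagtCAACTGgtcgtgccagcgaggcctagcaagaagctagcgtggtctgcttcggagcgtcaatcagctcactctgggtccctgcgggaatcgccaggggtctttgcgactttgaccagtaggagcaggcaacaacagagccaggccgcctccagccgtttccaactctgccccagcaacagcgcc
Rbm38: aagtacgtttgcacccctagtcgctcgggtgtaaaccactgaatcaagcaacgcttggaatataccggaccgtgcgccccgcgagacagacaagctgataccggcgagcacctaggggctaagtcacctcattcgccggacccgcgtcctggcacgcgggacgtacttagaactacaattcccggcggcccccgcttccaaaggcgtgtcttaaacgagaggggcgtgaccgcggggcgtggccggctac
Ptbp1: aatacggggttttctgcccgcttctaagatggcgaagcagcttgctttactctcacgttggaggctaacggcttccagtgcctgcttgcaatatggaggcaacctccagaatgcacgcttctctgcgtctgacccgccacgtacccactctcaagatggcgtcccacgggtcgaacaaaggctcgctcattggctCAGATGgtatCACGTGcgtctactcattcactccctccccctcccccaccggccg

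Of the 10 genes, 9 matched RefSeq promoter entries (15 entries in all), and Rbfox2 is named only. The Rbm24 sequence held 2 E-boxes, starting at -246 and -183 from the gene start. The Rbm38 sequence held 0. The Ptbp1 sequence held 2, at -55 and -45. For scale, 66.2% of 32851 promoter sequences of this length held at least 1 CANNTG and 31.8% held at least 2. ACGTG, 1 form of the core of the hypoxia response element, was searched on both strands and matched 0 times in Rbm24 and Rbm38. It matched 4 times in Ptbp1, where 2 of the matches are both strands of the CACGTG E-box at -45. The other form, GCGTG, was not searched, and each printed sequence holds it on at least 1 strand. Of all promoters, 16.6% held at least 1 ACGTG and 0.5% held at least 4. These matches describe letters and not binding, and no binding was measured here.

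Rbm24 and Rbm38 rose together in normoxia. At 21% oxygen both rose over 10-fold in differentiation medium, and at 2% oxygen both were far below that level. Rbm24 was at 7.23 and 6.83 FPKM in normoxic growth (A and B) and at 121 and 126 FPKM in normoxic differentiation. It was at 0.160 and 0.102 FPKM in hypoxic growth and at 0.813 and 0.834 FPKM in hypoxic differentiation. The 4 groups did not overlap, and both hypoxic groups lay below both normoxic groups. The group mean rose 17.6-fold with differentiation medium in normoxia, a log2 change of 3.96 ± 0.09 on the log2(FPKM + 1) scale (SE, limma adjusted p = 3.54e-07). In hypoxia it rose 6.29-fold (0.69 ± 0.09, adjusted p = 0.00212), from under 0.2 FPKM. Hypoxia lowered it 53.7-fold in growth medium (log2 change -2.83 ± 0.09, adjusted p = 1.34e-05) and 150-fold in differentiation medium (-6.10 ± 0.09, adjusted p = 1.40e-07). The few fragments that may lie behind values under 1 FPKM cannot be counted in this table, and the size of the log2 change depended on the pseudocount. With 0.1 in place of 1 the change in hypoxic differentiation was 2.01, and that of hypoxia in growth medium was -4.96.

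Rbm38 rose likewise in normoxic differentiation. It was at 7.63 and 6.26 FPKM in normoxic growth and at 103 and 99.2 FPKM in normoxic differentiation. In hypoxic growth it was at 5.21 and 5.39 FPKM, just below normoxic growth. In hypoxic differentiation the replicates disagreed, with 6.20 FPKM in A and 20.3 FPKM in B. The rise in normoxia was 14.6-fold (log2 change 3.69 ± 0.44, limma adjusted p = 0.000377). The fit shares 1 spread over the 4 groups, so this SE comes mostly from the hypoxic differentiation pair. The log2 difference of B minus A was -0.25 in normoxic growth and -0.06 in normoxic differentiation. In differentiation medium hypoxia lowered it 7.63-fold (-3.04 ± 0.44, adjusted p = 0.000954). Its change with hypoxia in growth medium did not pass the test over all 8 libraries (-0.33 ± 0.44, adjusted p = 0.588), although it passed without hypoxic differentiation A (adjusted p = 0.0305) or B (adjusted p = 0.0293), with the same log2 change. The change with differentiation medium in hypoxia did not pass either (0.98 ± 0.44, adjusted p = 0.123), and 1 library decided it. It was 1.76 without hypoxic differentiation A (adjusted p = 0.000307) and 0.19 without B (adjusted p = 0.235). In such fits the lone library is assumed to vary like the other groups, and leaving out either library of the least alike pair lowers the estimated spread by construction, so the sizes say more than the p-values. Library B, where Rbm38 was higher by 1.56 on the log2 scale than in A, also held the higher proliferation marker level of 383 FPKM, and the part of that in the Rbm38 value was not tested.

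Of the 10 muscle markers 9 rose with differentiation medium in normoxia, where both genes rose, and all 10 fell with hypoxia in differentiation medium, where both fell. With hypoxia in growth medium all 10 fell, as Rbm24 did, while the change of Rbm38 did not pass. With differentiation medium in hypoxia 6 markers rose and 1 fell, Rbm24 rose, and the change of Rbm38 did not pass. Of all genes tested, 25.5% rose with differentiation medium in normoxia, and 23.3% rose and 17.6% fell with it in hypoxia. With hypoxia 28.0% fell in growth medium and 27.7% in differentiation medium. The part of the muscle markers in the values of Rbm24 and Rbm38 was not tested. In these bulk samples, fewer cells of a type and less RNA per cell cannot be told apart. Within a library the ratio of Rbm24 to Rbm38 needs no scaling between libraries. It was 0.947 and 1.09 in normoxic growth and 1.17 and 1.27 in normoxic differentiation, so the genes were at like levels. In hypoxic growth the ratio was 0.0307 and 0.0189, and in hypoxic differentiation 0.131 and 0.0411. Rbm38 was thus the higher of the pair by 7.63 to 53.0 times in the 4 hypoxic libraries.

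**Figure D1:**
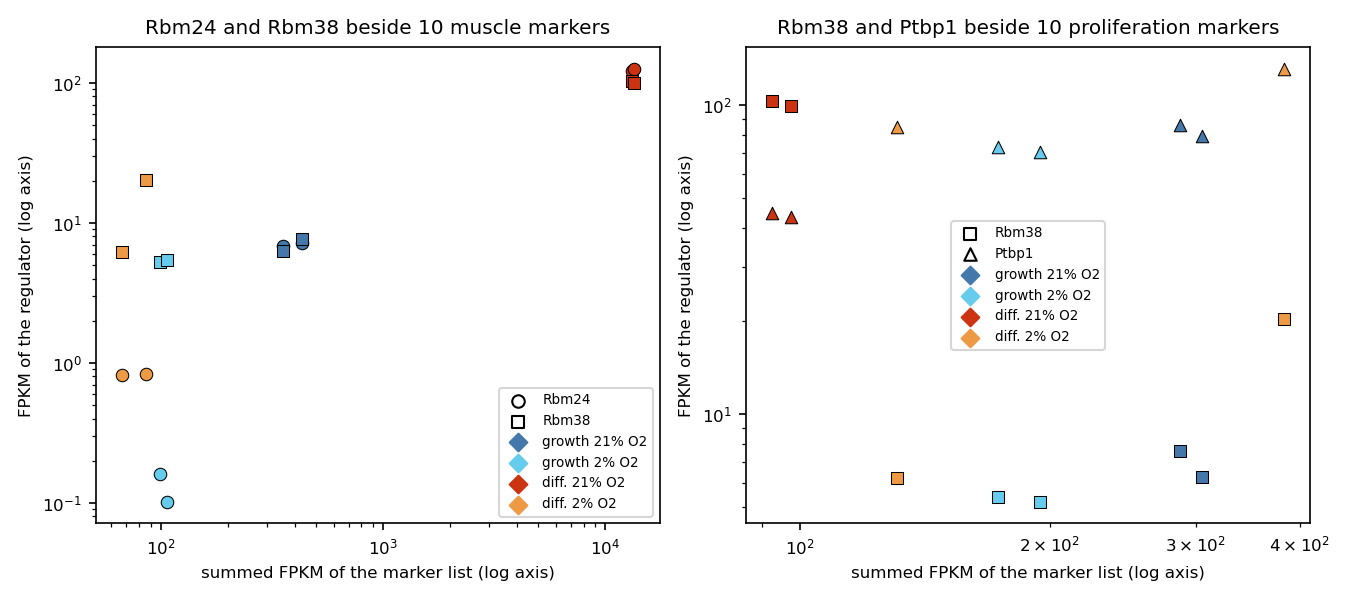
Left, level of Rbm24 and Rbm38 in each of the 8 libraries against the summed FPKM of 10 skeletal muscle markers. Right, level of Rbm38 and Ptbp1 against the summed FPKM of 10 proliferation markers. All axes are in FPKM on a log scale, and symbols give the gene and colours the group. The normoxic differentiation libraries lie alone at upper left for Rbm38 in the right panel (99.2 and 103 FPKM), and hypoxic differentiation B has the highest Ptbp1 (131 FPKM) and the highest proliferation sum (383 FPKM).

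Rbfox1, the RBFOX gene expressed mainly in neurons and striated muscle, was above 1 FPKM in 1 group. It was at 2.08 and 2.05 FPKM in normoxic differentiation, at 0.0125 FPKM in hypoxic growth A, and listed at 0 in the other 5 libraries. No fold is given against groups listed at 0. In each group 32 to 36 other genes were listed at 0 in 1 replicate and at 5 FPKM or more in the other, so a single listed 0 is a weak value in this table. Here the 0 recurred in both replicates of normoxic growth and of hypoxic differentiation. On the log2(FPKM + 1) scale normoxic differentiation was 1.62 above normoxic growth and hypoxic differentiation, and 4.44 above with a pseudocount of 0.1. The gene passed the filter on low values only through the group where it was high and so had to differ, and these differences are a description with no p-value.

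Rbfox2, the RBFOX gene that most tissues express, was high in every library. It was at 80.7 and 78.7 FPKM in normoxic growth, 69.8 and 68.1 FPKM in hypoxic growth and 96.4 and 94.7 FPKM in normoxic differentiation. In hypoxic differentiation it was at 69.2 FPKM in A and 57.5 FPKM in B. The normoxic and hypoxic libraries did not overlap in either medium. Hypoxia lowered it 1.51-fold in differentiation medium (log2 change -0.59 ± 0.10, limma adjusted p = 0.00159), which held under the alternatives tried. The rise with differentiation medium in normoxia was small (0.26 ± 0.10, adjusted p = 0.0486) and did not pass when any normoxic or hypoxic growth library or any normoxic differentiation library was left out (log2 change 0.24 to 0.28, adjusted p = 0.0843 to 0.165). Neither its change with differentiation medium in hypoxia (-0.13 ± 0.10, adjusted p = 0.334) nor that with hypoxia in growth medium (-0.21 ± 0.10, adjusted p = 0.13) passed over all 8 libraries. The former passed without hypoxic differentiation A (-0.26, adjusted p = 0.0201), and the latter without A or B of that group (adjusted p = 0.0206 and 0.0226). In normoxic differentiation the summed RBFOX output was almost all Rbfox2, at 46.3 times the level of Rbfox1 in both libraries.

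Ptbp1 went the other way from Rbm24 and Rbm38 in differentiation medium: it was lowest where they were highest. It was at 86.2 and 79.2 FPKM in normoxic growth and at 44.7 and 43.3 FPKM in normoxic differentiation. In hypoxic growth it was at 70.5 and 73.2 FPKM, and in hypoxic differentiation at 85.2 FPKM in A and 131 FPKM in B. All 6 other libraries lay above the normoxic differentiation pair. It fell with differentiation medium in normoxia 1.88-fold (log2 change -0.89 ± 0.18, limma adjusted p = 0.0048). In differentiation medium hypoxia raised it 2.46-fold (1.25 ± 0.18, adjusted p = 0.00104), by 1.55 without hypoxic differentiation A and by 0.94 without B, past the threshold each time. The change with differentiation medium in hypoxia narrowly missed the threshold (0.55 ± 0.18, adjusted p = 0.0522). It was 0.86 without hypoxic differentiation A (adjusted p = 0.000706) and 0.24 without B (adjusted p = 0.0573), and it passed after either other scaling of the libraries (adjusted p = 0.0321 and 0.0419). With hypoxia in growth medium its change was -0.20 ± 0.18 (adjusted p = 0.423), and it passed without hypoxic differentiation A or B (adjusted p = 0.0458 and 0.0469). The replicates of hypoxic differentiation differed in Ptbp1 by 0.62 on the log2 scale, near the SD of 0.57 over all genes tested there. Library B also had the highest proliferation marker sum. In normoxic differentiation 8 of the 10 proliferation markers fell with Ptbp1, against 41.0% of all genes tested. The part of these markers in the Ptbp1 values was not tested.

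Ptbp2, the paralog that replaces Ptbp1 in developing neurons, was not among the 10 genes but is set beside it here. It was at 13.8 and 15.5 FPKM in normoxic growth and 9.72 and 8.77 FPKM in normoxic differentiation. In hypoxia it was at 8.86 and 6.62 FPKM in growth medium and at 4.32 and 6.03 FPKM in differentiation medium. It fell with differentiation medium in normoxia (log2 change -0.61 ± 0.18, limma adjusted p = 0.0218) and with hypoxia in growth medium (-0.85 ± 0.18, adjusted p = 0.0102) and in differentiation medium (-0.74 ± 0.18, adjusted p = 0.01). Ptbp1 was the higher gene throughout. The ratio of Ptbp1 to Ptbp2 was 4.60 to 6.25 in the 4 normoxic libraries, 7.95 and 11.1 in hypoxic growth, and 19.7 and 21.7 in hypoxic differentiation.

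**Figure D2:**
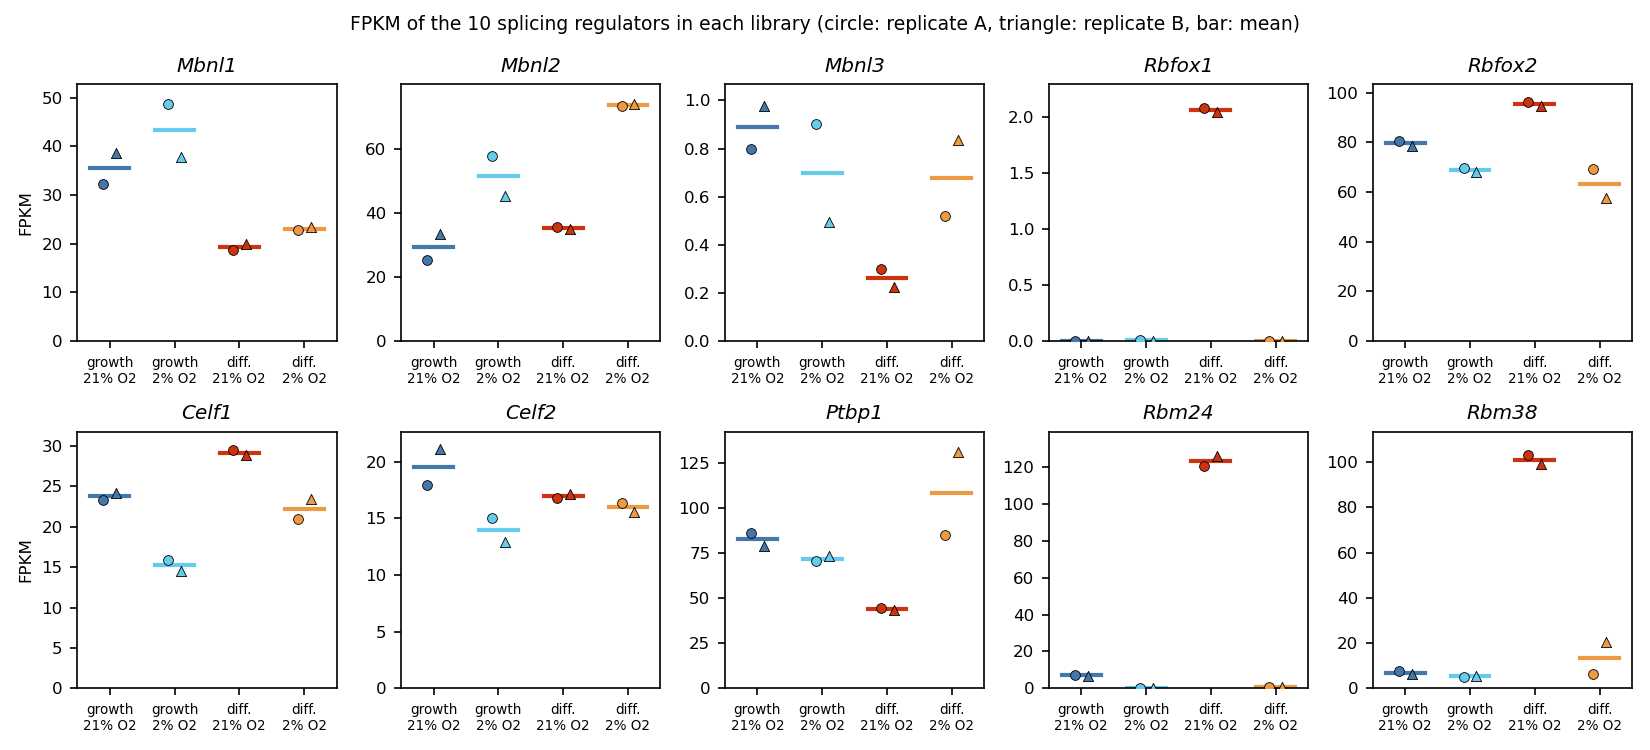
FPKM of each of the 10 splicing regulator genes in the 8 libraries, 1 panel per gene with its own axis starting at 0 (circle, replicate A; triangle, replicate B; bar, mean of 2 libraries). Rbm24, Rbm38 and Rbfox1 stand out in normoxic differentiation (121 and 126, 103 and 99.2, and 2.08 and 2.05 FPKM), Ptbp1 is lowest there, and Mbnl2 is highest in hypoxic differentiation (73.3 and 73.7 FPKM).

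Among the MBNL genes, Mbnl1 and Mbnl2 moved apart. Mbnl1, the main muscleblind protein of adult muscle, was at 32.4 and 38.7 FPKM in normoxic growth and at 48.7 and 37.9 FPKM in hypoxic growth. It was at 18.7 and 20.0 FPKM in normoxic differentiation and at 22.8 and 23.4 FPKM in hypoxic differentiation. Each differentiation library lay below each growth library. The fall with differentiation medium was 1.83-fold in normoxia (log2 change -0.84 ± 0.14, limma adjusted p = 0.00169) and 1.87-fold in hypoxia (-0.87 ± 0.14, adjusted p = 0.00384). Hypoxia gave changes of 0.27 and 0.25 in growth and differentiation medium that did not pass the test (adjusted p = 0.158 and 0.159). In growth medium the change passed after upper-quartile scaling (0.44, adjusted p = 0.0495).

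Mbnl2 rose with hypoxia. It was at 25.3 and 33.3 FPKM in normoxic growth and at 57.6 and 45.4 FPKM in hypoxic growth. In differentiation medium it was at 35.5 and 34.8 FPKM in normoxia and at 73.3 and 73.7 FPKM in hypoxia. All 4 hypoxic libraries were above all 4 normoxic ones. The rise with hypoxia was 1.76-fold in growth medium (log2 change 0.80 ± 0.15, limma adjusted p = 0.00717) and 2.09-fold in differentiation medium (1.04 ± 0.15, adjusted p = 0.00104). The rise with differentiation medium in hypoxia was smaller and less certain (0.52 ± 0.15, adjusted p = 0.0366). It missed the threshold after either other scaling (adjusted p = 0.0557 and 0.0802) and when hypoxic growth B or any differentiation library was left out (adjusted p = 0.0693 to 0.197). In normoxia the change with differentiation medium was 0.27 ± 0.15 (adjusted p = 0.167). Median-of-ratios scaling took it to 0.54 (adjusted p = 0.0221), and it also passed without normoxic growth B (0.46, adjusted p = 0.041).

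Mbnl3, a muscleblind gene linked to keeping myoblasts undifferentiated, was under 1 FPKM in every library and stayed outside the test. It was at 0.798 and 0.978 FPKM in normoxic growth and at 0.902 and 0.496 FPKM in hypoxic growth. In differentiation medium it was at 0.298 and 0.226 FPKM in normoxia and at 0.518 and 0.836 FPKM in hypoxia. The normoxic differentiation libraries were the lowest. With no filter on low values its fall with differentiation medium in normoxia passed (log2 change -0.58 ± 0.14, limma adjusted p = 0.0179), and none of the other 4 comparisons did. Mbnl3 made up 0.410 to 1.37% of the summed MBNL level. Mbnl2 made up 43.2 and 45.7% of it in normoxic growth, 53.7 and 54.1% in hypoxic growth, 65.1 and 63.3% in normoxic differentiation, and 75.9 and 75.2% in hypoxic differentiation. The share of Mbnl2 thus ran in 1 order over the groups with no overlap, and these shares do not depend on scaling between libraries.

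Celf1, the CELF protein whose excess is linked to fetal splicing patterns in muscle, was lower in hypoxia. It was at 23.4 and 24.2 FPKM in normoxic growth and at 15.9 and 14.6 FPKM in hypoxic growth. It was at 29.5 and 28.8 FPKM in normoxic differentiation and at 21.0 and 23.4 FPKM in hypoxic differentiation. Within each medium the oxygen groups did not overlap. Hypoxia lowered it 1.56-fold in growth medium (log2 change -0.61 ± 0.09, limma adjusted p = 0.00209) and 1.31-fold in differentiation medium (-0.38 ± 0.09, adjusted p = 0.00749). The latter sat at the threshold without normoxic differentiation A (-0.37, adjusted p = 0.0507). It rose with differentiation medium in hypoxia (0.51 ± 0.09, adjusted p = 0.00473) and in normoxia (0.28 ± 0.09, adjusted p = 0.025). The normoxic change did not pass when any of the 4 libraries compared was left out, at a log2 change of 0.26 to 0.31 (adjusted p = 0.0535 to 0.114).

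Celf2, the other CELF gene of striated muscle, stayed between 12.9 and 21.2 FPKM in all 8 libraries. It was at 17.9 and 21.2 FPKM in normoxic growth and at 15.1 and 12.9 FPKM in hypoxic growth. In differentiation medium it was at 16.8 and 17.1 FPKM in normoxia and at 16.4 and 15.6 FPKM in hypoxia. The fall with hypoxia in growth medium (log2 change -0.45 ± 0.11, limma adjusted p = 0.0176) was the only change of Celf2 that passed. It missed the threshold after either other scaling (adjusted p = 0.0702 and 0.116) and without normoxic growth B or hypoxic growth B (adjusted p = 0.075 and 0.114).

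The balance of MBNL to Celf1 plus Celf2 was higher in hypoxia. The summed MBNL level over the summed level of Celf1 and Celf2 was 1.41 and 1.61 in normoxic growth and 1.18 and 1.20 in normoxic differentiation. It was 3.47 and 3.04 in hypoxic growth and 2.59 and 2.51 in hypoxic differentiation. All 4 hypoxic libraries were above all 4 normoxic ones, and the differentiation libraries were below the growth libraries at either oxygen level. The summed MBNL level was 54.5 to 73.0 FPKM in normoxia and 83.8 to 107 FPKM in hypoxia, and the CELF sum was 41.3 to 46.3 and 27.5 to 39.0 FPKM. Celf4 and Celf5 are not in this CELF sum. Celf4 had means of 4.50 FPKM in normoxic growth, 4.81 in hypoxic growth, 0.348 in normoxic differentiation and 2.33 in hypoxic differentiation. For Celf5 these means were 1.72, 1.78, 0.164 and 2.96 FPKM. Unlike Celf1, both rose with hypoxia in differentiation medium (log2 changes 1.29 and 1.63). The ratios of MBNL to Celf1 plus Celf2 are a description and were not tested.

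**Figure D3:**
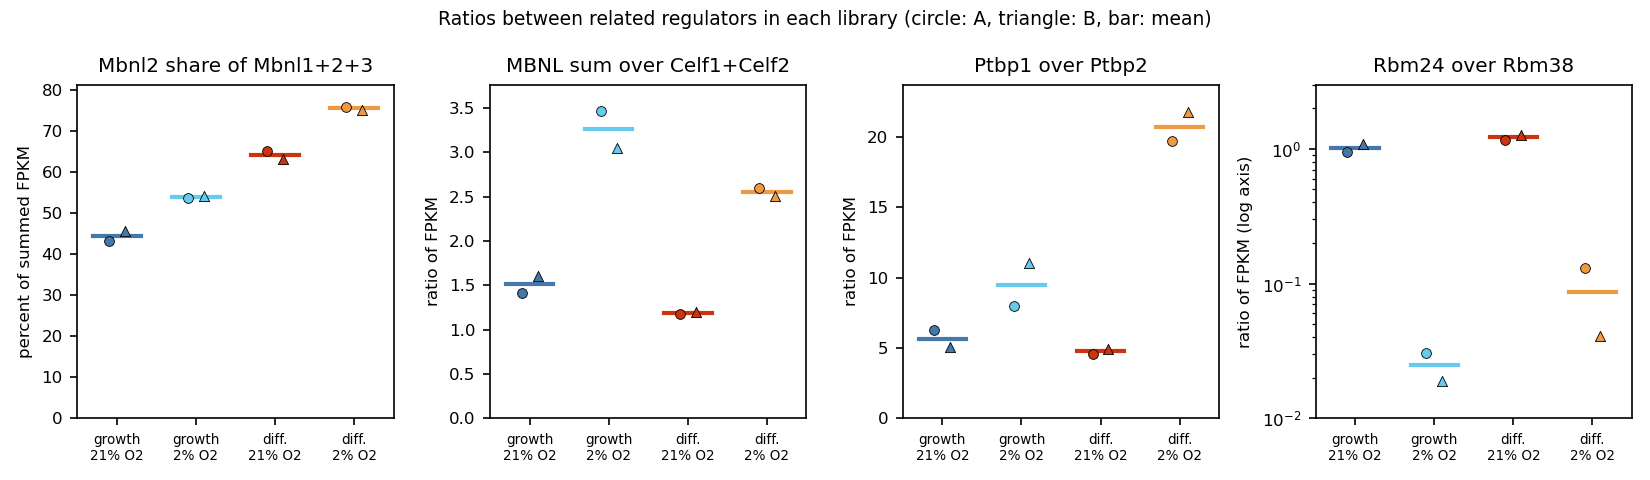
Mbnl2 as a percent of summed MBNL FPKM, and FPKM ratios of summed MBNL to Celf1 plus Celf2, Ptbp1 to Ptbp2 and Rbm24 to Rbm38 (log axis), in each library by group (circle, replicate A; triangle, replicate B; bar, mean). The share of Mbnl2 in summed MBNL lies between 43.2 and 75.9%, the MBNL to CELF ratio is higher in the 4 hypoxic libraries (2.51 to 3.47) than in the 4 normoxic ones (1.18 to 1.61), and Rbm24 is far below Rbm38 in hypoxia.

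Over the 9 genes tested, differentiation medium in normoxia raised 5 and lowered 2, leaving 2 that did not pass. Of all 12389 genes tested, 66.5% passed in this comparison, 25.5% higher and 41.0% lower. In hypoxia differentiation medium raised 3 and lowered 1, against 40.9% of all genes passing, 23.3% higher and 17.6% lower. Hypoxia in growth medium raised 1 (Mbnl2) and lowered 3 (Rbm24, Celf1 and Celf2), against 41.4% of all genes, 13.5% higher and 28.0% lower. Hypoxia in differentiation medium raised 2 (Mbnl2 and Ptbp1) and lowered 5 (Rbfox1, Rbfox2, Celf1, Rbm24 and Rbm38), against 65.2% of all genes, 37.5% higher and 27.7% lower. Such large shares of all genes passed that the number of regulators that passed says little by itself. Rbfox1 is in the counts for differentiation in normoxia and for hypoxia in differentiation medium, where the filter fixed its call.

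The scale of the libraries bears on the small changes. The median log2 change of all genes tested was -0.20 with differentiation medium in normoxia, 0.07 in hypoxia, -0.14 with hypoxia in growth medium and 0.15 in differentiation medium. After median-of-ratios scaling these medians were 0.03, 0.03, -0.04 and -0.03. The share of higher genes among those that passed moved with it, from 38.4 to 53.6%, 56.9 to 53.1%, 32.6 to 43.4% and 57.5 to 46.5%. The median change of the 9 genes was 0.27, 0.51, -0.21 and -0.38 in the same order, as deposited.

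The interaction asks whether the change with differentiation medium differed between the oxygen levels. It passed for 5 of the 9 genes, 1 higher and 4 lower, against 54.1% of all genes, 35.4% higher and 18.7% lower. The median over all genes was 0.27 as deposited and -0.01 after median-of-ratios scaling, and the share of higher genes among those that passed went from 65.5 to 47.3%. Rbm24 rose less in hypoxia by 3.27 ± 0.13 on the log2(FPKM + 1) scale, a difference of -3.27 (limma adjusted p = 7.72e-06). With a pseudocount of 0.1 the difference was -2.11. For Rbm38 the difference was -2.72 ± 0.63 (adjusted p = 0.0103), from -3.50 without hypoxic differentiation B to -1.93 without A. Rbfox1 differed by -1.62, which its passage through the filter by normoxic differentiation alone had fixed, and it is counted among the 4 for completeness. For Ptbp1 it was 1.44 ± 0.26 (adjusted p = 0.00379), beside its changes of -0.89 in normoxia and 0.55 in hypoxia. Rbfox2 differed by -0.39 ± 0.14 (adjusted p = 0.0491), which did not pass without any 1 of the 6 libraries outside hypoxic differentiation (-0.40 to -0.37, adjusted p = 0.0877 to 0.138). No difference passed for Mbnl1 (-0.03 ± 0.20, adjusted p = 0.913), Mbnl2 (0.25 ± 0.22, 0.366), Celf1 (0.23 ± 0.12, 0.154) or Celf2 (0.37 ± 0.16, 0.0858). Celf1 passed without hypoxic differentiation A (0.31, adjusted p = 0.0455) and Celf2 without normoxic growth A (0.49, adjusted p = 0.0455).

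**Figure D4:**
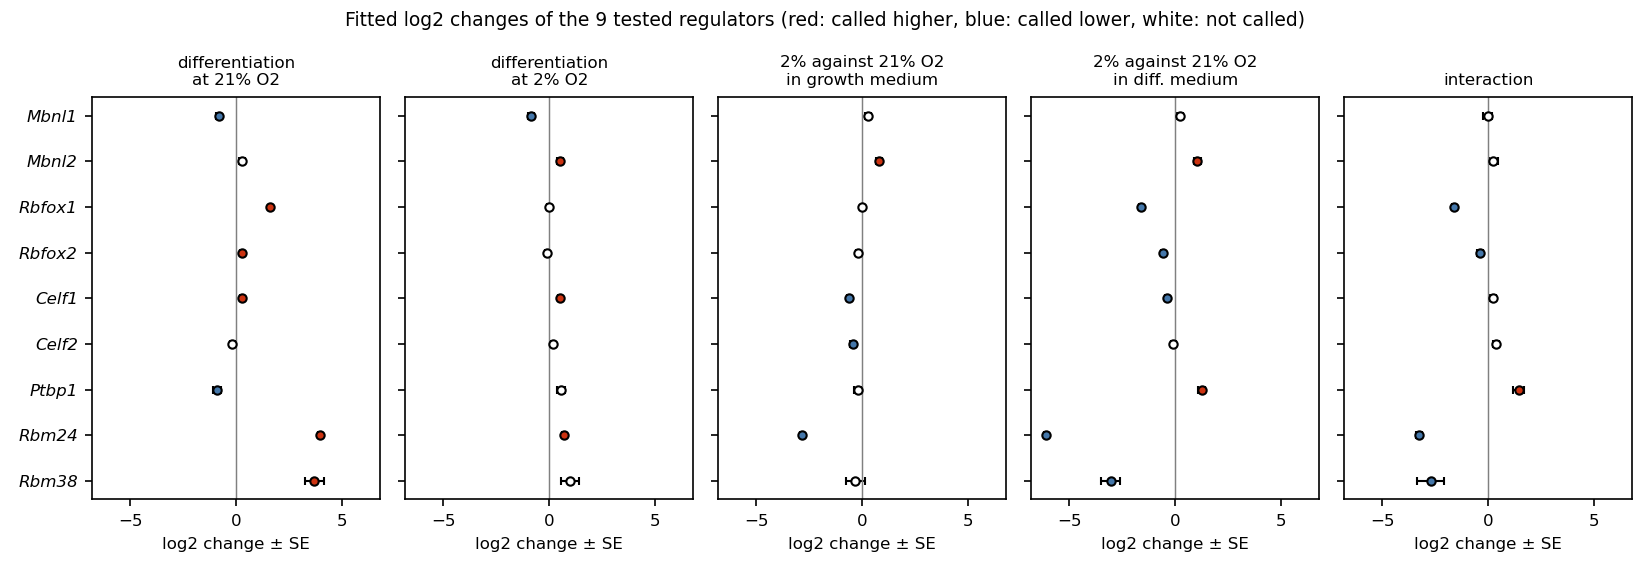
Log2 change (log2(FPKM + 1) scale, limma, bars are SE) of the 9 tested genes in each comparison; red points passed an adjusted p of 0.05 and were higher, blue points passed and were lower, and white points did not pass (the calls of Rbfox1 were fixed by the filter). Rbm24 and Rbm38 have the longest excursions, to 3.96 and 3.69 with differentiation medium in normoxia and to -6.10 and -3.04 with hypoxia in differentiation medium.

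The order of the levels changed between groups. In normoxic growth Ptbp1 and Rbfox2 led, at means of 82.7 and 79.7 FPKM, and their libraries overlapped. Mbnl1 and Mbnl2 followed and overlapped, as did Rbm24 and Rbm38 further down. In normoxic differentiation Rbm24 (mean 124 FPKM), Rbm38 (101) and Rbfox2 (95.5) led and no neighbours overlapped. In hypoxic growth Ptbp1 and Rbfox2 led again, at 71.9 and 68.9 FPKM, without overlap, while Mbnl2 overlapped Mbnl1 and Celf1 overlapped Celf2. In hypoxic differentiation Ptbp1 (108 FPKM) and Mbnl2 (73.5) led, while Mbnl1 overlapped Celf1, Celf2 overlapped Rbm38 and Rbm24 overlapped Mbnl3. The summed level of the 10 genes was 258 to 289 FPKM in the growth libraries, 467 and 468 in normoxic differentiation and 295 and 347 in hypoxic differentiation.

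With differentiation medium in normoxia no other splicing regulator tested changed as much as Rbm24 (3.96) or Rbm38 (3.69). Celf4 (-2.03), Celf5 (-1.23) and Qk (1.11) changed more there than Mbnl1 (-0.84) or Ptbp1 (-0.89). Of 54 listed genes 43 were tested. With differentiation medium in normoxia 8 rose and 20 fell, and with it in hypoxia 16 rose and 3 fell (20 and 4 without hypoxic differentiation A, 13 and 6 without B). Hypoxia in growth medium raised 1 and lowered 17 (2 and 23 without hypoxic differentiation A or B), and hypoxia in differentiation medium raised 15 and lowered 9. Of all genes tested, 25.5% rose and 41.0% fell with differentiation medium in normoxia, and 23.3% and 17.6% in hypoxia. With hypoxia 13.5% rose and 28.0% fell in growth medium, and 37.5% and 27.7% in differentiation medium. In the interaction 35.4% were higher and 18.7% lower. The medians were -0.24, 0.19, -0.34 and 0.15, beside -0.20, 0.07, -0.14 and 0.15 over all genes. The direction depended on scaling: after median-of-ratios scaling the counts were 13 and 12, 13 and 5, 2 and 14, and 7 and 15. The interaction gave 17 higher and 1 lower (median 0.31, beside 0.27 over all genes), 21 and 3 without hypoxic differentiation B, and 8 and 5 after that scaling.

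Qk, which encodes Quaking, a splicing and RNA stability factor of muscle and glia, was at 38.7 and 50.7 FPKM in normoxic growth and at 95.0 and 99.2 FPKM in normoxic differentiation. It was at 31.8 to 38.0 FPKM in the 4 hypoxic libraries. It rose with differentiation medium in normoxia (log2 change 1.11 ± 0.15, limma adjusted p = 0.000646), as Rbm24 did, and fell with hypoxia in differentiation medium (-1.43 ± 0.15, adjusted p = 0.000206). Raver1, a partner of PTBP1, was at 33.4 and 30.0 FPKM in normoxic growth, 17.0 and 17.3 in normoxic differentiation and 43.2 and 48.6 in hypoxic differentiation. Like Ptbp1 it fell in normoxia (-0.85 ± 0.10, adjusted p = 0.000281) and rose with hypoxia in differentiation medium (1.37 ± 0.10, adjusted p = 3.27e-05). With differentiation medium in normoxia Srsf4, an SR protein, fell (-0.81), as did Hnrnph1 (-0.77). Rbm4 rose (0.77) and Rbm4b fell (-0.77), with adjusted p of 0.0048 and 0.00034. Rbm4 and Rbm4b are close paralogs, and how the authors' counting split shared reads is not stated. With hypoxia in growth medium Srsf3, another SR protein, fell from 65.3 and 62.8 to 37.0 and 29.3 FPKM (-0.94 ± 0.14, adjusted p = 0.00278).

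Genes whose exons are known to switch in muscle were also followed at the gene level. Of 32 listed 31 were tested, and the list holds contractile genes that are themselves markers of differentiation, so its counts are not independent of the muscle markers. With differentiation medium in normoxia 23 rose and 8 fell, with a median of 1.93. In hypoxia 6 rose and 6 fell, with a median of 0.12, and without hypoxic differentiation A 11 rose and 7 fell. Hypoxia raised 5 and lowered 15 in growth medium, and raised 6 and lowered 23 in differentiation medium (medians -0.26 and -2.52). Of all genes tested, 25.5% rose and 41.0% fell with differentiation medium in normoxia, and 23.3% and 17.6% in hypoxia. With hypoxia the shares were 13.5% and 28.0% in growth medium, and 37.5% and 27.7% in differentiation medium. Ttn, Neb, Ryr1, Cacna1s, Mef2c and Nrap passed the filter only through normoxic differentiation. Their rise in normoxia and fall with hypoxia in differentiation medium were thus fixed and are no test. The counts over all 8 libraries stayed within 1 gene after either other scaling. Tnnt3, fast troponin T, went from 3.62 and 2.73 FPKM in normoxic growth to 1579 and 1568 FPKM in normoxic differentiation, and was at 2.53 and 0.993 FPKM in hypoxic differentiation. Tnnt2, cardiac troponin T and a known MBNL and CELF target, went from 14.4 and 12.3 to 480 and 457 FPKM, and was at 3.68 and 2.63 FPKM in hypoxic differentiation. Atp2a1, the fast-muscle calcium pump SERCA1, went from 4.01 and 3.03 to 540 and 578 FPKM, and was at 0.878 and 0.484 FPKM in hypoxic differentiation. Ttn, Neb and Cacna1s, for titin, nebulin and the calcium channel of the muscle membrane, rose by 4.94, 5.97 and 4.85 on the log2(FPKM + 1) scale. Tnnt2, Tnnt3 and Atp2a1 were at 5 FPKM or less in all 4 hypoxic libraries, and Tnnt3 and Atp2a1 also in normoxic growth. Other listed genes stayed higher in hypoxia, such as Tpm1 at 146 to 292 FPKM. A link of these levels to those of the regulators was not tested. Itga7, the laminin receptor subunit, was at 117 and 98.7 FPKM in normoxic growth and at 24.8 and 26.2 FPKM in hypoxic growth, and its fall with hypoxia in growth medium passed (-2.04 ± 0.19, adjusted p = 0.000422).

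Among 9863 genes with a group mean of at least 5 FPKM, the gene most like Rbm24 over the 8 libraries was Tnnt1, slow troponin T, with a root mean square difference of 0.29 in centred log2(FPKM + 1). Actn3 (0.46), Ifi27l2a (0.50), Chrnd (0.57) and Tnnt2 (0.58) came next. Tnnt1 was at 32.1 and 25.5 FPKM in normoxic growth, 295 and 289 in normoxic differentiation, 1.97 and 2.86 in hypoxic growth and 5.47 and 3.58 in hypoxic differentiation. Genes among those most like Rbm38 were Rrp12 (0.24), Arpp21 (0.25), Asb5 (0.33) and Pstpip1 (0.37). Asb5 was at 36.8 and 38.6 FPKM in normoxic growth, 293 and 279 in normoxic differentiation, 26.4 and 25.6 in hypoxic growth and, like Rbm38, higher in hypoxic differentiation B (77.0) than A (34.3). This measure ranks patterns over 8 libraries and says nothing of shared control.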

How the data were processed

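RNA-seq was measured in 8 of the 24 samples; the 8 H3K27me3 and 8 input libraries were not analysed here. The authors deposited 1 gene table in FPKM. Per the submitters' processing notes, the tools named are STAR 2.5.1b and Cufflinks 2.2.1 and the build mm9; annotation, strand setting and scaling are not given in the sources used here. Columns were matched to samples by title. All 8 libraries entered 1 limma 3.58.1 fit (R 4.3.3) on log2(FPKM + 1), with 4 group means, an intensity trend, 4 residual and 2.61 prior degrees of freedom. Genes needed a mean of 1 FPKM in at least 1 group, which left 12389 of 17914 above 0. Tests were two-sided, with Benjamini-Hochberg adjustment over these genes and 0.05 as the threshold. The fit was tested on simulated data with the same spread in all groups. That test did not cover the wider spread of the hypoxic differentiation pair. Fold values are ratios of group mean FPKM. Alternatives were other pseudocounts, filters, scalings, weights, a robust fit, a replicate block and leaving out each library. Promoters came from RefSeq, GRCm38.p6. Named genes were the 10 regulators, up to 6 genes of each list with the largest change that passed in normoxic differentiation and up to 3 for hypoxia in growth medium (at least 5 FPKM), Ptbp2, and the 5 genes most like each of Rbm24 and Rbm38. Of the genes this rule picks, 2 are not reported here. The regulators and lists were chosen with earlier results of these data known. Figures used Python 3.11.15 with pandas 2.3.3 and matplotlib 3.10.9.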

Additional observations from a re-analysis of the deposited data

Results flagged for a closer look

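For 4 genes, Rbm24, Rbm38, Rbfox2 and Ptbp1, the change with differentiation medium differed between the oxygen levels by a test of the difference itself (limma, hypoxia minus normoxia). Values are given for these and for Rbfox1. The difference was -3.27 for Rbm24, -2.72 for Rbm38, -1.62 for Rbfox1, -0.39 for Rbfox2 and 1.44 for Ptbp1, on the log2(FPKM + 1) scale. Rbfox1 passed the filter on low values only through normoxic differentiation, so its difference was fixed and is no test. The Rbfox2 difference lay at the threshold (adjusted p = 0.0491).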

How the results depend on the processing

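Results were recomputed under 9 alternatives and without each library, except Rbfox1 under the 5 FPKM filter, which it did not pass, and the interaction with only the libraries compared, which needs all 4 groups. With a log2 change of at least 1 also required, 3 regulators passed with differentiation medium in normoxia, 0 in hypoxia and 1 with hypoxia in growth medium; 5 passed with hypoxia in differentiation medium and 4 in the interaction. Of all genes, 28.6, 7.47, 10.2, 27.6 and 27.5% did. The counts of 3, 5 and 4 include Rbfox1. Its calls there were fixed by the filter, as in any other count of this section that includes it, and are no test. Without 1 library each, the count for hypoxia in growth medium ran from 3 to 7, with 7 without hypoxic differentiation A or B, where the number over all genes rose from 5135 to 6844 and 6842. Directions turned in 7 cases, none of which passed the test: after median-of-ratios scaling for Celf2 with differentiation medium in normoxia (0.0725), and the interaction of Mbnl2 (-0.0682) and Celf1 (-0.0828). When libraries were left out, the change of Rbfox2 with differentiation medium in hypoxia ran from -0.258 to 0.00556 and the interaction of Mbnl1 from -0.205 to 0.148. Over all genes tested the number passing with differentiation medium in hypoxia was 5073, and 2867 with only the libraries compared, 2688 without hypoxic growth A and 2501 without hypoxic growth B. For hypoxia in growth medium it was 2997 and 3083 without those libraries. The replicate letters did not pair the samples (correlations of the A minus B deviations between groups of -0.17 to 0.04). With the replicate letter as a block, 6, 3, 4, 7 and 4 regulators passed in the 5 comparisons, beside 7931, 4453, 4634, 7802 and 6273 of all 12389 genes, and Rbfox2 with differentiation medium in normoxia (adjusted p = 0.0523), its interaction (0.0543) and Mbnl2 with differentiation medium in hypoxia (0.0603) missed the threshold. List counts under the other scalings were chosen after seeing the data. Having 2 libraries a group limits these tests to the spread between cultures, and the depth behind low values such as those of Rbm24 in hypoxia is unknown.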
